A study of Mus musculus with 22 samples.

Results

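Perineuronal nets are lattices of extracellular matrix that wrap neuronal cell bodies and proximal dendrites. The 8 genes described here encode their main protein parts: the lecticans aggrecan (Acan), brevican (Bcan), neurocan (Ncan) and versican (Vcan), the link proteins Hapln1 and Hapln4, the glycoprotein tenascin-R (Tnr), and the receptor-type phosphatase Ptprz1. They were chosen by name as net components, and all 8 were listed among the 20668 genes of the nuclear count table and the 16304 genes of the whole-cell count table.

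Lecticans are chondroitin sulfate proteoglycans that bind hyaluronan, and link proteins hold the lectican on the hyaluronan chain. Tenascin-R is a multi-armed protein that ties several lecticans together, and the secreted ectodomain of Ptprz1, phosphacan, binds tenascin-R and anchors the matrix to the cell. In the mediobasal hypothalamus such nets surround neurons of the arcuate nucleus beside the median eminence, and glia as well as neurons make the parts.

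Hypothalamic RNA was measured by droplet sequencing of transcript 3′ ends in male leptin-deficient ob/ob mice of 11 weeks, an obese and diabetic model. Each mouse received 1 icv injection of 3 µg human FGF1, or of PBS as vehicle with pair-feeding to the intake of the FGF1 mice. Nuclei came from 3 FGF1 and 3 vehicle mice on Day 1 and from 2 and 2 mice on Day 5, and dissociated whole cells came from 6 further FGF1 mice and 6 further vehicle mice, taken on Day 5. All mice carried the same ob/ob genotype, no lean or ad libitum fed group was part of these comparisons, and neurons had been removed from the whole-cell table by the authors.

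The nuclei held 591 to 5768 barcodes per mouse, with a median of 2029 to 2816 unique molecular identifiers (UMIs) per nucleus in FGF1 mice and 3178.5 to 3776 in vehicle mice on Day 1. The whole cells held 1967 to 7926 barcodes per mouse, with medians of 1117.5 to 2090 UMIs. Barcode sequences found in more than 1 library numbered 318 of 24645 for nuclei and 1791 of 53065 for cells. Cell types of nuclei are the deposited labels. The clusters of whole cells carry only numbers in the deposited table and are given a name ending in "-like" from markers. The labels were checked against 6 markers each: nuclei labelled Tany passed 4 of 6 tanycyte markers and 6 of 6 astrocyte markers, ependymal nuclei 6 of 6 ependymal and 5 of 6 astrocyte markers, and COP nuclei 6 of 6 COP and 3 of 6 OPC markers, while endothelial-like cluster 3 passed the endothelial and the pericyte markers alike. UMIs of each gene were summed per mouse and cell type, and FGF1 was compared with vehicle over mice by edgeR's quasi-likelihood test, with a Benjamini-Hochberg false discovery rate (FDR) over all genes tested in that cell type and a call at an FDR below 0.05. Nuclear and whole-cell levels are not compared with each other, nor are the levels of different genes, and total UMIs per gene are given only to show how much was read.

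In the annotation of GRCm38 the genes lie partly in pairs. Ncan (chromosome 8, 70093085 to 70120873, minus strand) lies 2223 bases from Hapln4 (70083457 to 70090862, plus strand), and Vcan (chromosome 13, 89655312 to 89742509, minus strand) lies 43660 bases from Hapln1 (89539796 to 89611652, plus strand). Bcan (chromosome 3, 87987531 to 88000230, minus strand) lies 21520 bases from the link protein gene Hapln2, and Acan (chromosome 7, 79053483 to 79115099, plus strand) lies 3 bases from Hapln3. Tnr (chromosome 1, 159523769 to 159931729) and Ptprz1 (chromosome 6, 22875502 to 23052916) are on the plus strand with no link protein gene beside them. Tnr has an exon that overlaps an exon of the opposite-strand gene Gm38039.

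Promoter sequence was matched in RefSeq (GRCm38.p6) for 7 of the 8 genes. The windows of Ncan and Bcan are shown because these were the 2 members whose transcripts changed in opposite directions in the same cells, the tanycytes of Day 1. Each is the 250 bases before the start annotated in RefSeq, read 5′ to 3′ on the gene's strand, with every CG pair in capitals. For both genes that start differs from the one of the span given above, which is from another annotation (GENCODE). The Ncan window (chr8:70120845-70121094, minus strand) is 54.4% G or C and holds 6 CG pairs, and the Bcan window (chr3:88000357-88000606, minus strand) is 62.0% G or C and holds 16.
Ncan: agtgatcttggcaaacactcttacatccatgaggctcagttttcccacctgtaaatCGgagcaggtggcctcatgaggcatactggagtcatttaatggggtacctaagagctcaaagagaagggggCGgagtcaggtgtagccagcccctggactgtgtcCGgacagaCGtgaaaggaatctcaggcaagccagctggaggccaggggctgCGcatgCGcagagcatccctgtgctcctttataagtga
Bcan: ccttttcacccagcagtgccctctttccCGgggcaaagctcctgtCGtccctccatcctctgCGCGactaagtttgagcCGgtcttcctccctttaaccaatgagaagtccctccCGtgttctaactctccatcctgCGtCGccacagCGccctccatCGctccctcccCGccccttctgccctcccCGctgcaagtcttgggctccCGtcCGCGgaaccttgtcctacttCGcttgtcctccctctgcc
The median over 32851 such mouse windows was 52.4% G or C with 6 CG pairs. The Ncan window is therefore near the middle of that range in CG pairs, and the Bcan window holds more. The AP-1 letters TGANTCA were searched on both strands and found in 6.75% of all windows. The ETS letters CCGGAAG were found in 6.91%, and the STAT letters TTCNNNGAA in 7.02%. None of these was found in the 7 member windows, which says only that the letters are not there.

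Acan, the lectican that gives nets their dense form, had 117 UMIs in all nuclei and 199 in all cells. Of its UMIs in vehicle cells, 71.55% lay in cluster 5, which held 8.08% of all UMIs and is OPC-like (oligodendrocyte precursor cells, 5 of 6 markers), and 12.07% lay in cluster 9, which held 0.84% and is COP-like (committed oligodendrocyte precursors, 6 of 6 markers). The Acan level was 21.2 ± 12.9 CPM of all UMIs in cluster 5 and 38.4 ± 29.98 in cluster 9 (SD, n = 6 vehicle mice), and these ranges overlapped each other and that of unnamed cluster 18, at 74.7 ± 81.1 CPM (n = 4) on 7 UMIs. Orders of levels cover cell types with at least 10 barcodes in each of at least 2 vehicle mice. Levels in nuclei pool the vehicle mice of Day 1 and Day 5, so their SDs and overlaps hold differences between days and between mice together. In vehicle nuclei the highest Acan level, 21.3 ± 32.3 CPM (n = 5), was that of the n13.Agrp/Gm8773 neurons, on 5 UMIs, and it overlapped the level of the next type.

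Vcan, the lectican of loose and embryonic matrix, had 56.45% of its vehicle whole-cell UMIs in cluster 5, where its level was 519 ± 85.1 CPM. It stood at 393 ± 110 CPM in unnamed cluster 18, at 298 ± 86.5 CPM in cluster 9 and at 141 ± 42.4, 109 ± 36.8 and 55.6 ± 23.6 CPM in the tanycyte-like clusters 7, 0 and 10, with neighbours in this order overlapping. For comparison, endothelial-like cluster 3 and microglia-like cluster 8 held 13.4 ± 7.84 and 14.1 ± 12.8 CPM. In nuclei the highest Vcan levels were in the deposited COP label, 229 ± 79.0 CPM, and in tanycytes, 117 ± 76.0 CPM.

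Bcan, the main lectican of adult brain, was level across the highest clusters, with 916 ± 195 CPM in cluster 9, 903 ± 198 and 833 ± 98.1 in astrocyte-like clusters 4 and 1, and 822 ± 169 in cluster 5. These overlapped one another. Unnamed cluster 18 followed at 658 ± 108 CPM, and tanycyte-like cluster 10 came next at 336 ± 38.3 CPM, below the range of the clusters above it. Endothelial-like cluster 3 held 148 ± 35.6 and microglia-like cluster 8 held 199 ± 80.8 CPM of Bcan, and oligodendrocyte-like cluster 2 and ependymal-like cluster 6, at 163 and 165 CPM, lay between these. The share of free RNA in such reads was not tested. Bcan in nuclei was highest in astrocytes, 302 ± 43.8 CPM, and tanycytes, 275 ± 50.2 CPM, which overlapped, and lower in ependymal nuclei at 172 ± 35.7 CPM, which did not overlap the tanycytes.

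Ncan, the lectican enriched in young and injured brain, was highest in cluster 5 at 206 ± 15.9 CPM, followed by unnamed cluster 18 at 155 ± 103 CPM and astrocyte-like clusters 4 and 1 at 142 ± 70.7 and 119 ± 23.2 CPM, each overlapping its neighbour. Its levels of 17 to 34 CPM in the tanycyte-like clusters lay near or below the 29.4 ± 14.5 of endothelial-like cluster 3 and below the 41.2 ± 16.3 of microglia-like cluster 8. Among nuclear types with at least 2 vehicle mice Ncan was highest in astrocytes, 57.0 ± 14.5 CPM, against 10.3 ± 6.67 in microglia, while the Glu12 neurons of 1 vehicle mouse held 66.3 CPM on 3 UMIs.

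The link proteins were read mostly in nuclei. Hapln1 had 2276 UMIs in nuclei and 159 in cells, and Hapln4, the link protein partnered with Bcan at inhibitory synapses, had 938 and 190. Hapln1 ranged widely between the pooled vehicle mice. Its 8 highest nuclear types, from ependymal nuclei at 93.8 ± 71.0 CPM (n = 3) to tanycytes at 51.0 ± 50.8 CPM (n = 4), all overlapped their neighbour. Microglial nuclei, at 46.7 ± 51.9 CPM, had a mean just below these. For Hapln4 the highest levels with more than 10 UMIs were 15.1 ± 3.03 CPM in the n29.Nr5a1/Adcyap1 neurons, against 12.2 ± 12.1 CPM in microglia.

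Tnr, the cross-linker, had 59.96% of its vehicle whole-cell UMIs in cluster 5 and 18.16% in cluster 9. Its level in COP-like cluster 9 was 1833 ± 592 CPM, above the whole range of OPC-like cluster 5 at 601 ± 108 CPM. Ependymal-like cluster 6 held 61.9 ± 11.5 CPM, and the astrocyte-like clusters 1 and 4, at 11 and 18 CPM, were near the 13.4 ± 4.19 CPM of endothelial-like cluster 3. In nuclei the COP label led at 972 ± 208 CPM, and most neuron types lay near microglia, which held 330 ± 66.3 CPM, as for the n29.Nr5a1/Adcyap1 neurons at 331 ± 41.3 CPM.

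Ptprz1, the receptor phosphatase that also gives rise to phosphacan, was highest in OPC-like cluster 5 at 1941 ± 299 CPM, above the range of every other cluster, with astrocyte-like clusters 4 and 1 next among the named clusters at 1095 ± 132 and 880 ± 144 CPM. Its level was 224 ± 56.1 CPM in endothelial-like and 262 ± 90.0 CPM in microglia-like cells. Nuclei of the COP label held 1015 ± 177 CPM and astrocytes 966 ± 205 CPM, which overlapped, against 366 ± 104 CPM in microglia.

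**Figure D1:**
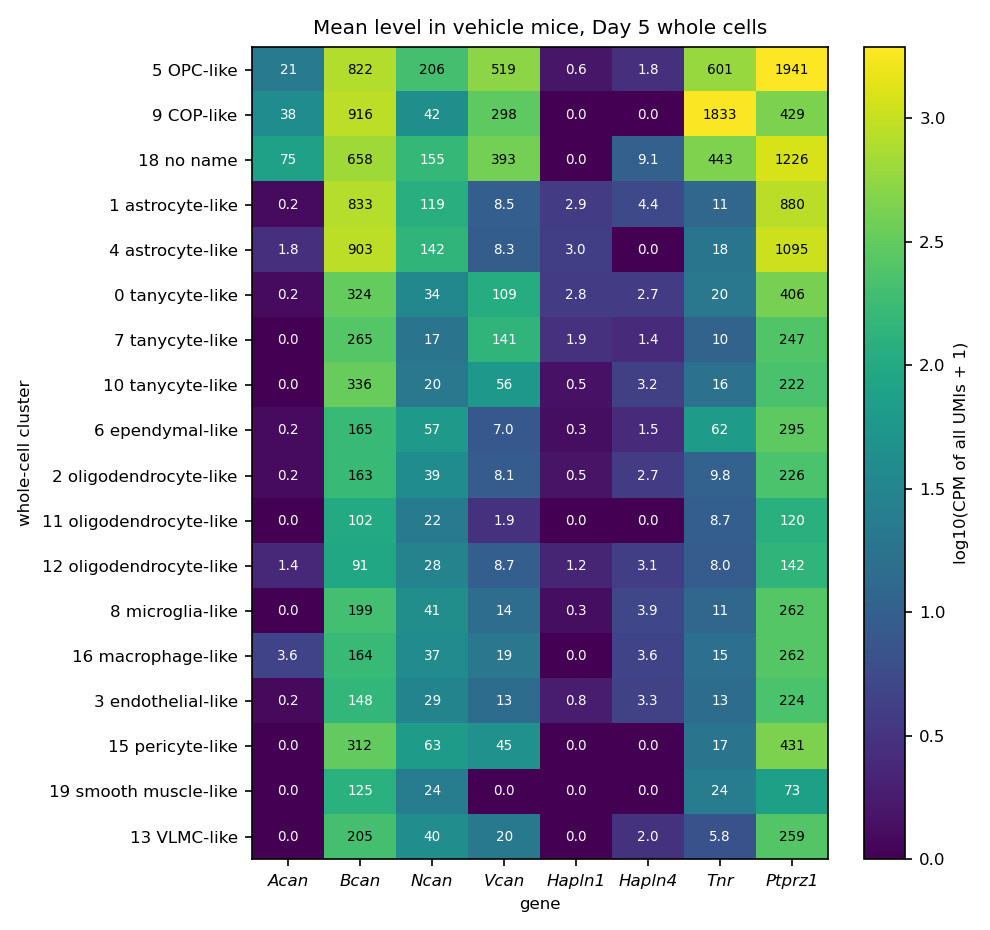
Mean level of each of the 8 genes (columns) in each whole-cell cluster (rows) over the vehicle mice of Day 5, with the CPM of all UMIs printed in each square and colour on a log10(CPM + 1) scale. Acan, Vcan and Tnr are highest in clusters 5, 9 and 18 (Tnr 601, 1833 and 443 CPM), and Bcan, Ncan and Ptprz1 also reach high values in the astrocyte-like clusters 1 and 4.

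On Day 1 after FGF1, 2 lecticans changed in opposite directions in tanycytes, the radial glia that line the floor of the third ventricle: Ncan rose and Bcan fell. In ependymal cells, their ciliated neighbours, Ptprz1 rose. These were the 3 calls among 54 member tests in 18 nuclear types, beside a background of 1.05% of all 72292 gene tests. In the types of these calls the share was higher, at 9.14% of genes in tanycytes and 19% in ependymal nuclei. Ncan passed the filter on low counts through the FGF1 group alone, so the count is a description. A further 6 member tests, 9 in all, had an unadjusted p below 0.05, as had 8.12% of all gene tests. The levels that follow are scaled CPM, which are CPM over the UMIs of the tested genes after TMM scaling.

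Ncan in Day 1 tanycyte nuclei read 9.04, 9.36 and 17.9 scaled CPM in the 3 vehicle mice, on 1 UMI each, and 223, 159 and 101 in the 3 FGF1 mice, on 59, 19 and 6 UMIs. Every FGF1 mouse was above every vehicle mouse, and the groups were far apart. The fitted log2 fold change was 3.84 ± 0.60 (SE, FDR 0.00241). Because the vehicle group holds 3 UMIs in all, the ratio of the pooled rates is also given. It was 16.1 with a 95% counting interval of 5.31 to 79.4. That interval covers counting error only, not the spread between mice, and 1 FGF1 mouse gave 59 of the 84 FGF1 UMIs. Ncan passed the filter on low counts here through the FGF1 group alone, so its call is given as a description of these counts, and it was not tested when only barcodes within the study's limits on mitochondrial and ribosomal UMIs were kept. Of the 3534 genes tested in these nuclei, 9.14% were called and 983 had groups that did not overlap.

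Bcan in the same tanycytes read 352, 421 and 395 scaled CPM in vehicle mice and 102, 109 and 83.7 in FGF1 mice. The 3 FGF1 mice lay close together and well below the lowest vehicle mouse. The log2 fold change was -1.95 ± 0.36 (FDR 0.00464), and the Bcan call was kept with any 1 mouse left out (FDR up to 0.0381).

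The other members tested in Day 1 tanycytes did not pass. Ptprz1 read 1202, 880 and 987 against 1685, 1802 and 1172 scaled CPM (log2 0.61, FDR 0.368), and Vcan and Tnr gave log2 fold changes of 0.34 and -0.83 (FDR 0.742 and 0.306) with overlapping groups. Hapln1, with 16 and 30 UMIs in vehicle and FGF1, was not tested, nor were Hapln4 and Acan. These tests rest on 20 to 35 vehicle and 25 to 119 FGF1 nuclei per mouse.

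Markers of other cells moved with treatment in the same nuclei. The summed astrocyte markers, which include genes that tanycytes also express, stood at 24.0 to 39.7 per 10000 UMIs in vehicle and 9.45 to 14.4 in FGF1 tanycytes, with 2 of 6 higher in FGF1 and none at 0. The tanycyte markers stood at 10.8 to 16.7 and 8.38 to 11.0, the ependymal markers at 3.02 to 5.35 and 0.756 to 1.00, and the neuron markers at 20.2 to 53.4 and 16.9 to 28.1. Bcan fell in the direction of the astrocyte markers, and Ncan rose against it. The part of these markers in either result was not tested.

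On Day 5 only 9 and 14 vehicle tanycyte nuclei were left per mouse, against 34 and 107 in FGF1, so tanycytes were tested only with the minimum lowered to 5 nuclei, a choice made after seeing the data. Bcan then read 304 and 309 scaled CPM in vehicle and 317 and 627 in FGF1 mice (log2 0.67 ± 0.45, FDR 0.718), and Ncan 0 and 0 against 48.0 and 57.4, on 0 and 18 UMIs, which was not tested. The Bcan effect on Day 5 minus that on Day 1 was 2.69 ± 0.58 on the log2 scale (FDR 0.0275, with 0.829% of 5067 genes called). For Ncan the difference was 1.75 ± 2.34 and not called. The astrocyte markers of these Day 5 nuclei summed to 23.1 to 26.0 per 10000 UMIs in vehicle and 31.8 to 46.7 in FGF1 mice, with 6 of 6 higher in FGF1, so they differed between the days in the same direction as Bcan. Their part in the Bcan difference was not tested. In the whole cells of Day 5, with tanycyte-like clusters merged, Ncan read 29.6 ± 5.91 scaled CPM in vehicle and 21.5 ± 6.82 in FGF1 mice (SD, n = 6 and 6). The log2 fold change was -0.44 ± 0.18 and did not pass (FDR 0.173), so no rise was seen in these cells. They differ from the Day 1 nuclei in day, preparation and, by the study's account, dissection and mouse supplier. They therefore do not test the Day 1 rise. The Ncan levels of the merged cells were near those of endothelial-like cells, at 31.1 ± 15.5 and 27.5 ± 5.46.

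**Figure D2:**
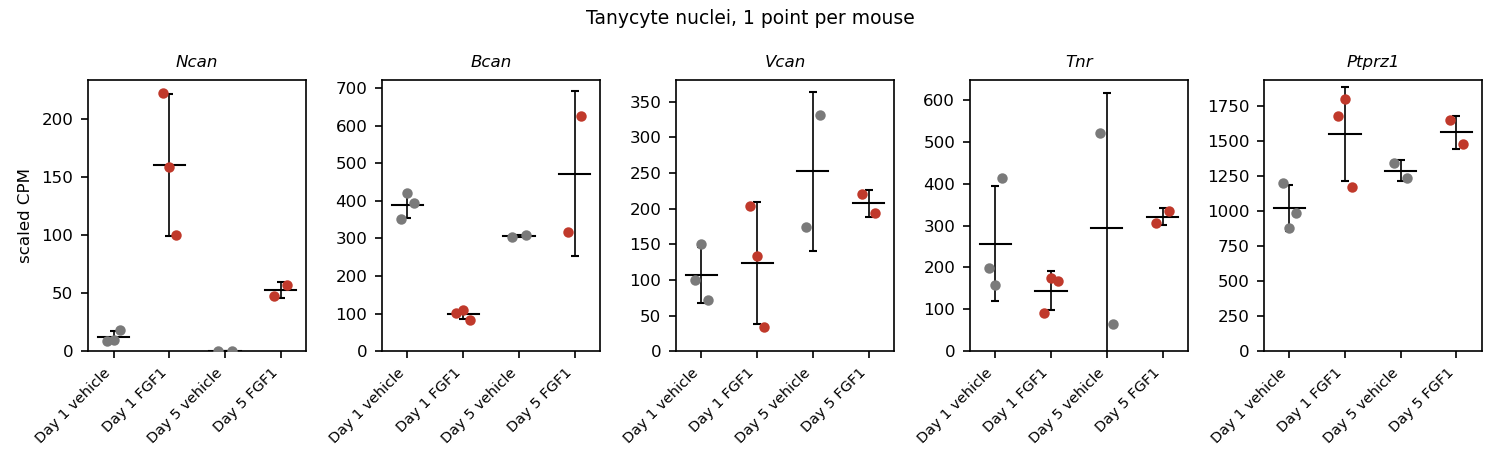
Scaled CPM of 5 genes in tanycyte nuclei, 1 point per mouse, with the group mean (bar) and SD (whiskers), for vehicle (grey) and FGF1 (red) mice on Day 1 (n = 3 and 3) and Day 5 (n = 2 and 2). On Day 1 Ncan is 101 to 223 in FGF1 mice against at most 17.9 in vehicle mice, and Bcan is at most 109 against at least 352.

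In Day 1 ependymal nuclei Ptprz1 read 1364, 1119 and 1117 scaled CPM in vehicle and 2354, 2349 and 1880 in FGF1 mice. Its groups did not overlap, which was so for 532 of the 1456 genes tested there. The log2 fold change was 0.87 ± 0.29 (FDR 0.0432), in a type where 19% of the 1456 genes tested were called. The call was lost with any 1 of the 6 mice left out (FDR 0.0603 to 0.131) and in DESeq2 (FDR 0.112), and with the deposited batch number as a block the FDR was 0.0741. Tnr, the only other member tested there, gave 0.40 (FDR 0.432).

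The untested lecticans of the ependymal nuclei had few UMIs, with the pooled counts of Bcan at 34 in vehicle and 9 in FGF1, of Ncan at 6 and 16, and of Vcan at 2 and 15. Without the filter on low counts Bcan gave -1.98 there (FDR 0.0187). The summed ependymal markers were 27.5 to 37.1 per 10000 UMIs in vehicle and 8.73 to 14.9 in FGF1 mice, and the astrocyte markers 18.1 to 19.3 and 3.77 to 9.65, each with 1 of 6 higher in FGF1 and none at 0. Their part in the values of Ptprz1 and Bcan was not tested.

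Day 1 astrocytes did not pass for any member. Ncan read 55.9, 40.6 and 71.8 scaled CPM in vehicle and 133, 154 and 127 in FGF1 mice, without overlap (log2 1.34 ± 0.41, FDR 0.191). Bcan read 310, 315 and 366 against 280, 200 and 134, also without overlap (log2 -0.67 ± 0.47, FDR 0.832). In these nuclei 919 of the 6063 genes tested had groups that did not overlap. Both estimates had the sign of their tanycyte change. Vcan, with 13 and 70 UMIs, was not tested in astrocytes, Ptprz1 gave 0.50, Tnr 0.19 and Hapln1 -0.52, and none of these passed.

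In the nuclei of the COP label on Day 1 Tnr read 1451, 834 and 1197 against 1567, 1562 and 1983 scaled CPM (log2 0.55 ± 0.26, FDR 0.829). The other 4 members tested in it, Bcan, Vcan, Hapln1 and Ptprz1, gave 0.18 to 0.23, and Ncan, with 3, 4 and 5 UMIs in vehicle and 12, 15 and 8 in FGF1 mice, was not tested. The OPC markers of these nuclei summed to 11.8 to 19.03 per 10000 UMIs in vehicle and 20.9 to 40.8 in FGF1 mice, and their part in the Ncan counts was not tested.

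Neurons were read for Tnr and Ptprz1 in each of the 10 named neuron types tested on Day 1, and no member was called in them. The lowest unadjusted p values were those of the n29.Nr5a1/Adcyap1 neurons, where Tnr read 352, 281 and 321 in vehicle and 399, 628 and 586 scaled CPM in FGF1 mice (log2 0.75 ± 0.23, FDR 0.286) and Ptprz1 gave 0.68 ± 0.22 (FDR 0.300). Tnr in the n13.Agrp/Gm8773 neurons, the hunger neurons of the arcuate nucleus, read 685, 541 and 589 against 952, 1219 and 1102 (log2 0.84 ± 0.29, FDR 0.279). The GABA15 neurons, whose leading genes are also Npy and Agrp, read 997 and 478 against 561 and 960 for Tnr, with overlapping groups of 2 mice (log2 0.05 ± 0.48). In the Glu6 neurons Tnr gave 1.11 ± 0.37 and Ptprz1 -0.73 ± 0.32 (both FDR 0.998). The groups of the n29.Nr5a1/Adcyap1, n13.Agrp/Gm8773 and Glu6 tests did not overlap, as in 15 of the 54 member tests of Day 1 and 15.8% of all gene tests of that day, and none passed over all genes tested. Across its 17 tests of Day 1 Tnr had a median log2 fold change of 0.28, and in microglia it gave 0.46 ± 0.26.

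Hapln1 varied more between mice than between treatments on Day 1. The unmapped nuclei, the largest pool, are neurons that the authors could not match confidently to published types. No gene was called in them on Day 1. There Hapln1 read 29.99, 11.9 and 98.2 scaled CPM in vehicle and 44.4, 10.7 and 12.7 in FGF1 mice (log2 -0.96 ± 0.80, FDR 0.851). The vehicle mice alone ranged from 11.9 to 98.2, with 2 of the 3 FGF1 mice inside that range and the other at 10.7. Hapln4, tested on Day 1 only in these nuclei, read 9.16, 13.4 and 9.08 against 22.3, 15.2 and 3.80 (log2 0.44 ± 0.51, FDR 0.892).

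Acan passed the filter in no cell type of either day or table, so FGF1 was compared with vehicle for it in none of them by the planned fit. The n13.Agrp/Gm8773 neurons of Day 1 held 1, 0 and 3 Acan UMIs in vehicle and 3, 5 and 1 in FGF1 mice, and the unmapped nuclei held 14 and 14.

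**Figure D3:**
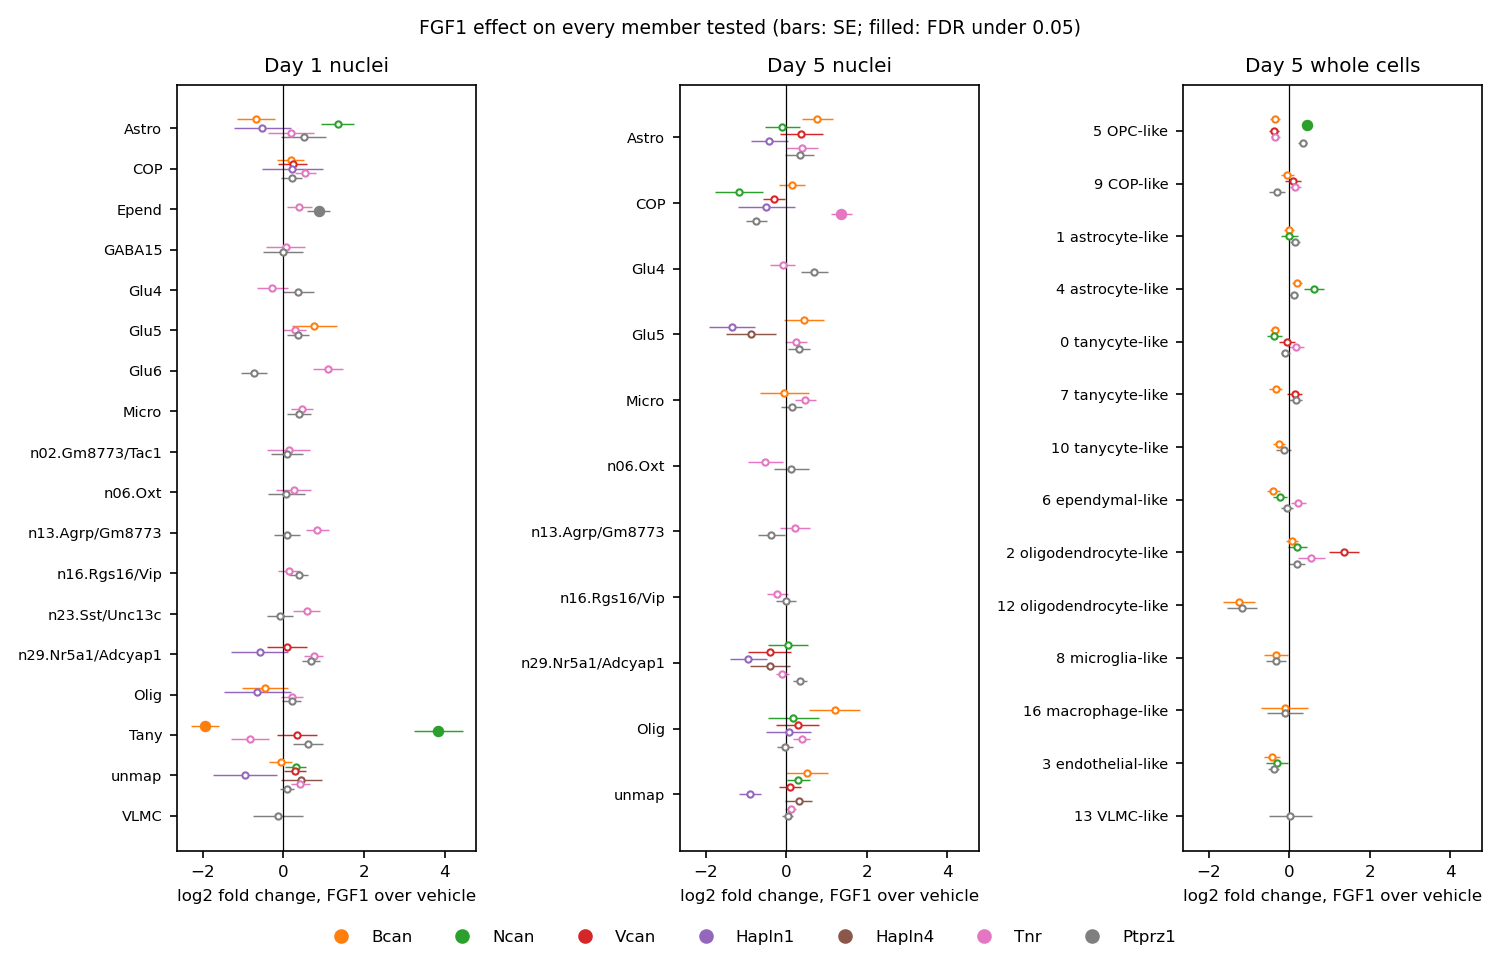
Log2 fold change of FGF1 over vehicle (x axis) with its SE for every member tested in each cell type (y axis), for Day 1 nuclei, Day 5 nuclei and Day 5 whole cells, with filled points for an FDR below 0.05. The 5 filled points are Ncan (3.84) and Bcan (-1.95) in Day 1 tanycytes, Ptprz1 (0.87) in Day 1 ependymal nuclei, Tnr (1.36) in Day 5 COP nuclei and Ncan (0.44) in whole-cell cluster 5.

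On Day 5 the only member call in nuclei was in the oligodendrocyte lineage. Tanycyte and ependymal nuclei, where the calls of Day 1 lay, had too few vehicle nuclei for the planned fit. Tnr rose in the nuclei of the COP label, and this was the 1 call among 47 member tests in 11 types, beside a background of 0.288% of 71541 gene tests. In 4 more member tests, 5 in all, the unadjusted p was below 0.05, as in 8.6% of all gene tests.

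Tnr in these nuclei read 1289 and 891 scaled CPM in the 2 vehicle mice and 2623 and 3089 in the 2 FGF1 mice. Both FGF1 mice were above both vehicle mice by a wide gap. The log2 fold change was 1.36 ± 0.27 (FDR 0.00527, with 1.28% of 5767 genes called), and without FGF1 replicate 45 it was 1.27 with an FDR of 0.0539, a fit in which the remaining FGF1 mouse is assumed to vary like the vehicle mice. The mice gave 52 and 17 vehicle and 85 and 202 FGF1 nuclei of this label.

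The label holds cells of more than 1 stage, and the balance of its markers differed between groups. The 6 COP markers (among them Gpr17 and Bmp4) summed to 4.08 to 4.71 per 10000 UMIs in vehicle and 14.4 to 18.7 in FGF1 mice, with 5 of 6 higher in FGF1. The 6 OPC markers (among them Pdgfra) summed to 21.3 to 23.4 and 10.3 to 16.3, with 0 of 6 higher, and neuron markers stood at 118 to 120 and 115 to 121. No marker of either list was at 0 in a group. Tnr stood higher in COP-like whole cells than in any other cluster, and whether the marker balance has a part in its rise was not tested.

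The other members of the Day 5 COP nuclei did not pass. Ptprz1, which stood higher in OPC-like than in COP-like whole cells, read 1141 and 1290 against 901 and 550 scaled CPM (log2 -0.75 ± 0.26, FDR 0.236), and Ncan read 53.5 and 53.2 against 27.9 and 20.4 (log2 -1.17 ± 0.59, FDR 0.517). Neither overlapped, which with 2 mice a group was so for 39.8% of all genes tested in these nuclei (38.9% over all types of Day 5, and 23 of the 47 member tests). Vcan, Bcan and Hapln1 gave -0.31, 0.14 and -0.49 with overlapping groups.

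**Figure D4:**
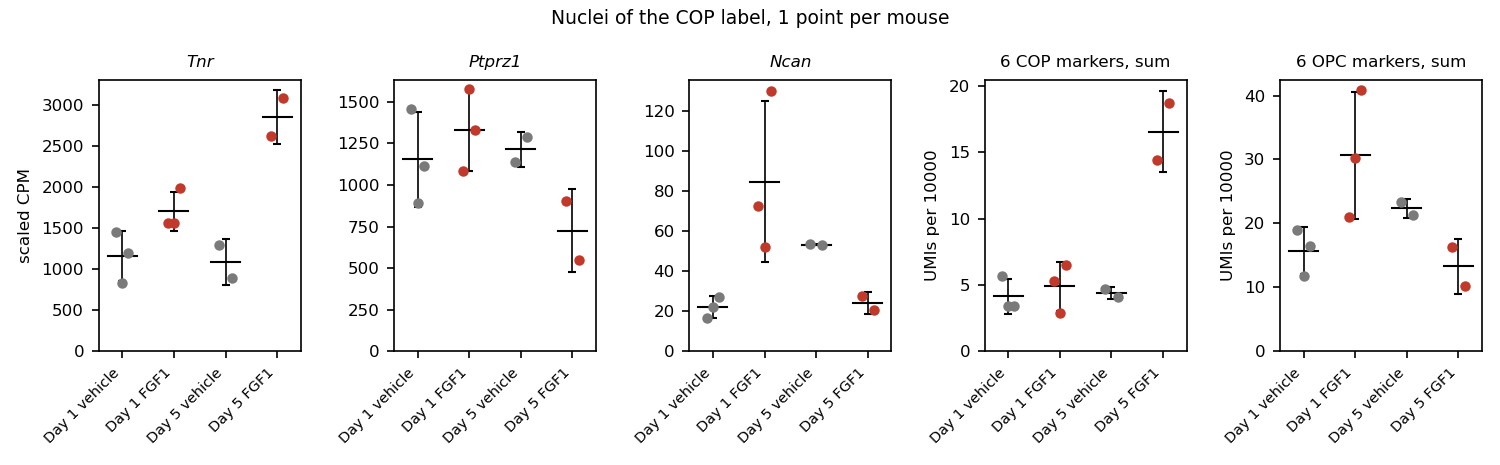
Nuclei of the COP label, 1 point per mouse with mean and SD, for scaled CPM of Tnr, Ptprz1 and Ncan and for the summed UMIs per 10000 of 6 COP and 6 OPC markers, in vehicle (grey) and FGF1 (red) mice of Day 1 and Day 5. On Day 5 Tnr is 2623 and 3089 in FGF1 mice against 1289 and 891 in vehicle mice, and the COP markers are 14.4 to 18.7 against 4.08 to 4.71.

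Hapln1 tended lower in Day 5 nuclei without a call. In the unmapped nuclei it read 26.7 and 37.1 scaled CPM in vehicle and 19.8 and 13.6 in FGF1 mice (log2 -0.89 ± 0.28, FDR 0.419), and in the Glu5 and n29.Nr5a1/Adcyap1 neurons it gave -1.35 ± 0.58 and -0.94 ± 0.46 (FDR 0.813 and 0.549). These 3 are the other tests of Day 5 nuclei, beside Ptprz1 in COP nuclei, with an unadjusted p below 0.05. The vehicle mice of Day 1 had differed by more than this in the unmapped nuclei. Hapln4 was tested in 3 types, with estimates of -0.87, -0.40 and 0.30.

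Day 5 astrocyte nuclei read 298 and 360 scaled CPM of Bcan in vehicle and 456 and 651 in FGF1 mice (log2 0.77 ± 0.39, FDR 0.408). Ncan read 71.6 and 70.6 against 35.1 and 90.0 (log2 -0.09). The Bcan estimate has the opposite sign to that of Day 1, and its difference between days, 1.44 ± 0.67, did not pass (FDR 0.632).

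The difference between days was tested in the same model for 45 combinations of member and type, and 0 were called, beside a background of 0.00784% of 76499 gene tests. Among them Tnr in COP nuclei gave 0.83 ± 0.41 (FDR 0.851) and Ncan in COP nuclei -2.90 ± 0.86 (unadjusted p = 0.00281, FDR 0.329). The Tnr call on Day 5 is thus not shown to differ from Day 1.

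In the whole cells of Day 5, with 6 mice a group, Ncan rose in OPC-like cluster 5. It was the 1 call among 44 member tests in 14 of 16 clusters, beside a background of 1.75% of 67441 gene tests, and 13 more, 14 in all, had an unadjusted p below 0.05, as had 13.4% of all gene tests.

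Ncan in cluster 5 was 211 at the lowest, 222 at the median and 261 at the highest vehicle mouse, and 257, 328 and 368 scaled CPM in FGF1 mice. The groups overlapped between 257 and 261. The means were 231 ± 22.4 and 317 ± 44.3 (SD, n = 6 and 6), and the log2 fold change was 0.44 ± 0.12 (FDR 0.0450, with 2.39% of 5235 genes called). Leaving out 1 mouse at a time removed the call in 8 of 12 cases (FDR 0.0256 to 0.105), and it was also lost with the batch number as a block (FDR 0.0506), without the filter on low counts (FDR 0.0745) and with the OPC-like clusters merged (log2 0.40, FDR 0.0586).

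The other members of cluster 5 lay near the threshold without passing it. Ptprz1 was 1746, 2181 and 2632 at the lowest, median and highest vehicle mouse and 2378, 2726 and 3065 in FGF1 mice (log2 0.34 ± 0.11, FDR 0.0817, and 0.0262 in DESeq2). Bcan was 683, 931 and 1172 against 641, 715 and 826 (log2 -0.36 ± 0.12, FDR 0.0929). Tnr and Vcan gave -0.34 ± 0.12 and -0.37 ± 0.13 (FDR 0.0990 and 0.123). Within this cluster the estimates of Ncan and Ptprz1 were thus positive and those of Bcan, Tnr and Vcan negative. All these groups overlapped.

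The COP markers of cluster 5 summed to 13.2 to 15.9 per 10000 UMIs in vehicle and 10.3 to 12.9 in FGF1 mice, and the OPC markers to 26.0 to 33.3 and 27.8 to 34.3. The part of the COP markers in the values of Tnr, which stands highest in COP-like cells, was not tested.

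Acan in cluster 5 had 83 vehicle and 37 FGF1 UMIs, which is 25.1 CPM of all UMIs (95% exact Poisson interval 20.0 to 31.1) against 19.9 (14.0 to 27.4). The intervals overlap and cover counting error only. In COP-like cluster 9 it had 14 vehicle UMIs in 164 cells and 37 FGF1 UMIs in 1583 cells, which is 40.8 CPM (22.3 to 68.5) against 10.6 (7.46 to 14.6). By mouse it read 0, 20.9, 36.9, 44.1, 59.1 and 94.7 scaled CPM in vehicle, on 0 to 6 UMIs each, and 7.21 to 20.1 in FGF1 mice. The groups overlapped, and at this depth 1 UMI in a vehicle mouse is worth as much as several in an FGF1 mouse. Acan was under the filter on low counts in this cluster. DESeq2, which has a filter of its own, gave -1.94 (FDR 0.0400), and edgeR without the filter gave -1.56 (FDR 0.0844).

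Tnr in cluster 9, the level of the cells in which it stood highest, was 1326, 1824 and 3085 at the lowest, median and highest vehicle mouse and 2069, 2161 and 2420 scaled CPM in FGF1 mice. The FGF1 mice lay within the vehicle range, on 16 to 51 vehicle and 174 to 372 FGF1 cells per mouse. The log2 fold change was 0.15 ± 0.14 (FDR 0.693), and 0.50 (FDR 0.0336) without the filter on low counts. Bcan, Vcan and Ptprz1 gave -0.04, 0.09 and -0.30 in this cluster.

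In astrocyte-like cells the answer for Ncan depended on how clusters were counted and on the filter. Cluster 1 held 91.93% of the vehicle and 30.97% of the FGF1 astrocyte-like cells, and cluster 4 held 8.07% and 69.03%. Within cluster 1 Ncan gave -0.00012 ± 0.21 on the log2 scale and within cluster 4 0.61 ± 0.25 (FDR 0.442), where without the filter on low counts it gave 0.75 (FDR 0.00825). With both merged per mouse Ncan was 92.3, 132 and 163 at the lowest, median and highest vehicle mouse and 162, 196 and 299 scaled CPM in FGF1 mice, which gave 0.72 ± 0.17 (FDR 0.00734, with 12.6% of 9830 genes called). Tnr, whose level in these clusters was near that of endothelial-like cells, moved from 11.9 ± 3.12 to 20.7 ± 8.33 in the merged cells (log2 0.77 ± 0.24, FDR 0.0340). Bcan, Vcan and Ptprz1 gave 0.20, 0.52 and 0.27 and did not pass, and Hapln1 and Hapln4 were not tested. Hapln1 stood at 2.92 ± 2.08 scaled CPM in vehicle and 7.18 ± 1.23 in FGF1 mice, on 34 and 44 UMIs, and Hapln4 at 4.23 ± 2.53 and 0.974 ± 0.790, on 45 and 7. Single mice ran from 0 to 5.50 and from 5.598 to 8.46 for Hapln1, and from 1.86 to 8.49 and from 0 to 1.69 for Hapln4. These are levels of few UMIs a mouse, and the clusters did not share the merged direction. The Hapln1 median was 3.39 in vehicle and 1.85 in FGF1 mice in cluster 1, and 0 and 8.30 in cluster 4. For Hapln4 it was 4.09 and 0 in cluster 1, and 0 and 0.95 in cluster 4. The clusters differ in genes and in treatment share at once, so a change within cells and a change in the mix of clusters cannot be told apart in the merged values.

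**Figure D5:**
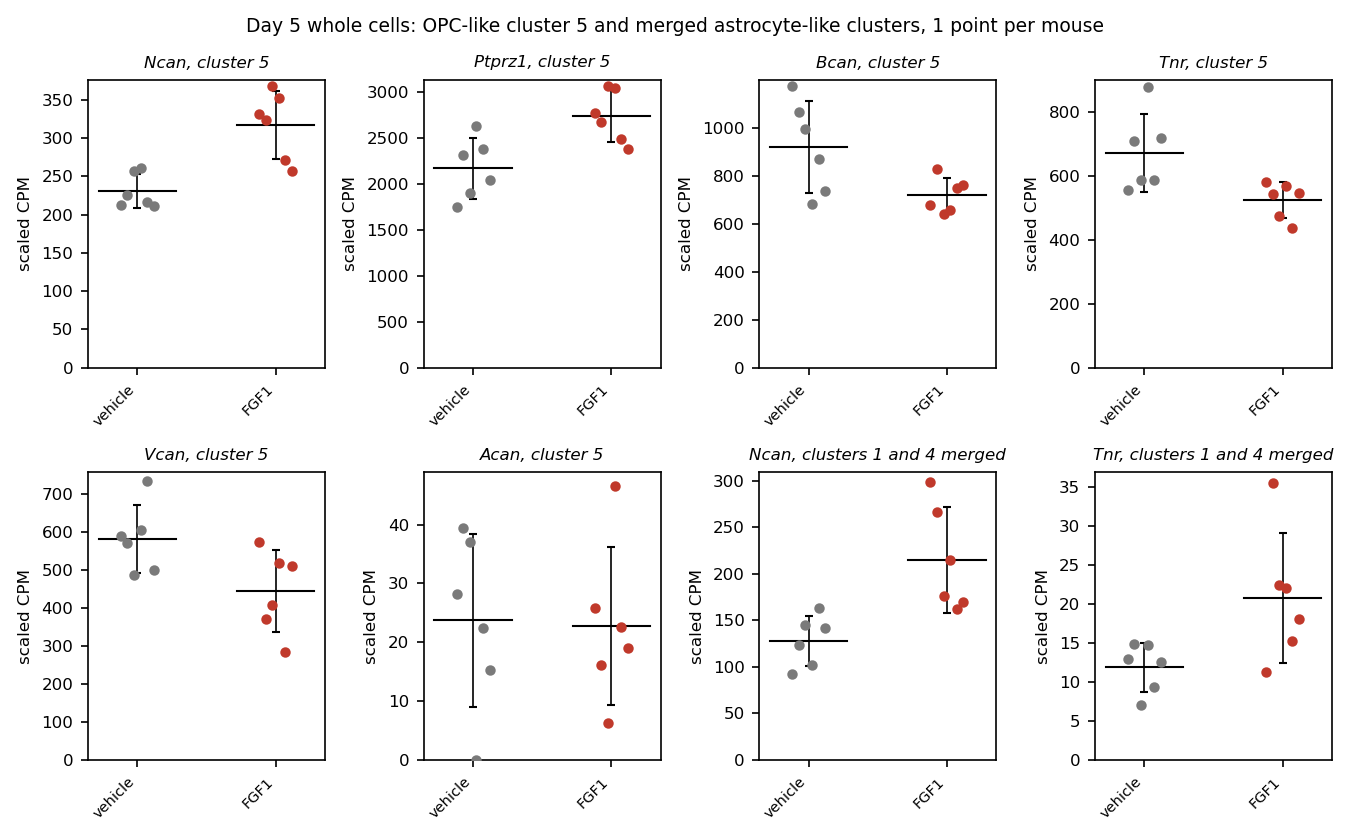
Scaled CPM in Day 5 whole cells, 1 point per mouse with mean and SD (n = 6 vehicle, grey, and 6 FGF1, red), for 6 members in OPC-like cluster 5 and for Ncan and Tnr in astrocyte-like clusters 1 and 4 merged. Ncan in cluster 5 spans 211 to 261 in vehicle and 257 to 368 in FGF1 mice, and merged astrocyte-like cells span 92.3 to 163 and 162 to 299.

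Bcan gave a negative estimate in 10 of the 13 whole-cell clusters where it was tested, none of them called. The values were -0.36 ± 0.12 in tanycyte-like cluster 0 (FDR 0.0623), -0.40 in ependymal-like cluster 6, -0.34 in tanycyte-like cluster 7 and -1.24 ± 0.39 in oligodendrocyte-like cluster 12 (FDR 0.151). In endothelial-like cluster 3 and microglia-like cluster 8, which are not known to make it, Bcan gave -0.43 and -0.33. Ptprz1 in those clusters gave -0.38 and -0.33, and -1.18 ± 0.37 in cluster 12 (FDR 0.151). The part of free RNA in these values was not tested.

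Vcan in oligodendrocyte-like cluster 2 was 1.21, 7.86 and 15.9 at the lowest, median and highest vehicle mouse and 12.4, 29.8 and 45.1 scaled CPM in FGF1 mice, on 72 and 59 UMIs. The groups overlapped, and the log2 fold change was 1.36 ± 0.38 (FDR 0.0927, 0.0468 in DESeq2 and 0.0184 without the filter). With the batch number as a block the FDR was 0.210, and with the oligodendrocyte-like clusters merged the estimate was 0.74 (FDR 0.309). Cluster 2 held 83.38% of the vehicle and 55.63% of the FGF1 oligodendrocyte-like cells. Vehicle levels in cluster 2 were at or below those of endothelial-like cells. In tanycyte-like clusters 0 and 7 Vcan gave -0.05 and 0.13.

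Whether FGF1 acted differently between clusters was tested for 20 pairs of member and cluster, each against astrocyte-like cluster 1, and 0 were called, beside a background of 1.06% of 34215 gene tests. The lowest FDR was that of Tnr in cluster 5 minus cluster 1, with -1.26 ± 0.35 (FDR 0.0562, and 0.0130 without FGF1 replicate 10). Ncan in cluster 5 minus cluster 1 gave 0.37 ± 0.18 (FDR 0.440), so the Ncan change of OPC-like cells is not shown to be particular to them. Acan entered this fit in cluster 5 and gave 0.84 ± 1.06 (FDR 0.849).

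Genes that build, bind or cut the same matrix were read from 4 lists. Their counts stand beside called shares of all gene tests of 1.05% on Day 1 (9.14% in tanycytes and 19% in ependymal nuclei), 0.288% in Day 5 nuclei and 1.75% in Day 5 cells. On Day 1, of 11 tests of hyaluronan genes 3 were higher and 0 lower, and all 3 were Cd44, the hyaluronan receptor. Its vehicle groups held 17 UMIs in tanycytes, 11 in astrocytes and 10 in ependymal nuclei, so it passed the filter on low counts through the FGF1 group, and the count is a description. It rose from 64.3 to 753 scaled CPM in tanycytes (log2 3.57 ± 0.51), from 9.20 to 285 in astrocytes (4.61 ± 0.63) and from 98.8 to 639 in ependymal nuclei (2.62 ± 0.54). The median over types of the list's log2 fold change was 1.37, but in these 3 types Cd44 was the only gene tested. In the other types with a hyaluronan gene tested the list's median was 0.02 (n29.Nr5a1/Adcyap1 neurons), 0.09 (oligodendrocytes) and 0.11 (unmapped nuclei).

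Of 97 tests of matrix proteases and their inhibitors on Day 1, 5 were higher and 0 lower. Of these 5, the 3 of Timp1 and that of Adamts1 had 1 to 5 vehicle UMIs and passed the filter on low counts through the FGF1 group, so the count is a description. Timp1, an inhibitor of metalloproteinases, rose in tanycytes, astrocytes and VLMC (vascular leptomeningeal cells). Its vehicle groups held 1 to 3 UMIs, and the ratios of pooled rates were 121 (95% counting interval 21.5 to 4801), 235 (80.2 to 1140) and 216 (59.1 to 1791). These intervals cover counting error only, not the spread between mice. Timp3 rose by 1.38 ± 0.35 in tanycytes, and Adamts1, a protease that cuts lecticans, by 3.09 ± 0.57 in astrocytes. Of 75 tests of chondroitin sulfate synthesis genes, 1 was higher, Xylt1, which starts the sugar chain, in ependymal nuclei (1.67 ± 0.41). It had 15 vehicle and 51 FGF1 UMIs and passed the filter through the FGF1 group, so this count is a description. Of 120 tests of other lectican partners, also 1 was higher, the synaptic pentraxin Nptx2 in n29.Nr5a1/Adcyap1 neurons (2.74 ± 0.37). Its vehicle group held few UMIs, 24 against 230 in FGF1, so this count is a description too. The median over types was 0.11 for the protease list, 0.51 for the synthesis list and 0.05 for the partner list, while the median of all genes was between -0.05 and 0.03 in each type. Some types had only 1 synthesis gene tested, such as the Glu4 (-0.26) and n13.Agrp/Gm8773 neurons (1.12). The unmapped nuclei, with 18 tested, had a synthesis median of 0.26 and 0 calls.

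In Day 5 nuclei the 1 call among all 4 lists was Ust, a sulfotransferase of chondroitin and dermatan chains, which rose in COP nuclei (2.17 ± 0.32). These are the nuclei in which Tnr rose and in which 5 of 6 COP and 0 of 6 OPC markers were higher in FGF1, and the part of that marker balance in the Ust value was not tested. In Day 5 whole cells 2 of 12 hyaluronan tests were higher, Cd44 in tanycyte-like clusters 0 (1.18 ± 0.14) and 7 (0.79 ± 0.20). Of 71 protease and inhibitor tests 2 were lower, Timp3 in ependymal-like cluster 6 (-0.71 ± 0.16) and Adamts4 in oligodendrocyte-like cluster 11 (-0.98 ± 0.29). Of 89 partner tests 4 were lower: the contactin Cntn1 in COP-like cluster 9 (-1.11 ± 0.19) and in cluster 11 (-0.85 ± 0.20), the Ptprz1 ligand pleiotrophin (Ptn) in cluster 9 (-1.14 ± 0.27), and Nptxr in cluster 0 (-0.75 ± 0.15). The part of the cluster 9 markers, given above beside Acan, in the Cntn1 and Ptn values of that cluster was not tested. The 60 tests of chondroitin sulfate synthesis genes gave 0 calls in the whole cells.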

How the data were processed

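Libraries were made with droplet 3′ chemistry and per the labels processed with Cell Ranger 1.2 against GRCm38, with intronic reads counted for nuclei. The authors deposited raw UMI counts per gene and barcode, with a table of barcodes giving mouse, batch and cell type or cluster. They removed doublets from the whole cells with Scrublet. The percent of UMIs from mitochondrial and ribosomal genes was deposited for whole cells and computed here from the counts for nuclei. No doublet caller was run here, and the authors' normalised values were not used. Of the sample names in those tables, 0 could not be mapped.

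UMIs were added up within each mouse and cell type, with at least 10 cells per mouse and at least 2 mice per group. FGF1 was compared with vehicle in edgeR 4.0.16 (filterByExpr, TMM, robust quasi-likelihood test) in R 4.3.3, and FDR values were adjusted by Benjamini-Hochberg over all genes tested in a cell type. Levels across cell types are CPM of all UMIs, in place of the TMM-scaled CPM first planned. For nuclei they pool the days, which were planned separately. P-values measure the spread between mice. The scripts were tested on simulated data with known changes.

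The members and the gene lists were chosen with earlier results of these data known. All members were named in each comparison where they could be tested, with up to 3 called genes per direction of each pathway list. Intervals on levels are exact Poisson intervals, and those on ratios of pooled rates are exact binomial intervals. All are at 95% and cover counting error only.

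Alternatives were DESeq2 1.42.0, RLE size factors, no filter on low counts, cells thinned to 1000 UMIs, a minimum of 30 cells, only barcodes within the study's limits on mitochondrial or ribosomal UMIs, merged clusters, a batch or replicate block, and each mouse left out. A minimum of 5 nuclei was added after seeing the data. In Day 1 nuclei the 3 mouse pairs of equal replicate number were compared in 12 cell types, with correlations of -0.464 to 0.467. Of these 36 values, which are not independent, 10 were above 0.1, all from the pair numbered 3. Replicate numbers were not taken as pairs. Each batch number in the deposited tables, whose meaning they do not state, held 1 FGF1 and 1 vehicle mouse. Batch partners gave -0.617 to 0.0752 in the same cell types of Day 1 nuclei. Day 5 nuclei and whole cells were not checked in this way.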

Additional observations from a re-analysis of the deposited data

Results flagged for a closer look

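Of 88 groups of 4 to 10 mice tried, 4 held a mouse far from the others, which is about what chance gives, since it marks about 1 in 20 groups. Bcan in tanycyte-like cluster 7 was 431 scaled CPM in vehicle replicate 27, with the next mouse at 294. Ptprz1 in macrophage-like cluster 16 was 913 in FGF1 replicate 28, with the next mouse at 301. Ptprz1 in endothelial-like cluster 3 was 209.5 in FGF1 replicate 36, with the next at 182. Ptprz1 in cluster 7 was 432 in vehicle replicate 20, with the next at 287. The FGF1 effect on Bcan in tanycyte nuclei differed between the days by 2.69 on the log2 scale, with 9 and 14 vehicle nuclei on Day 5.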

How the results depend on the processing

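Bcan in Day 1 tanycytes kept its direction and its call under every alternative that could test it. Thinning to 1000 UMIs left Bcan and Ncan untested there, with 0 members called on Day 1, and keeping only barcodes within the mitochondrial and ribosomal limits left Ncan untested, with 2 called. In Day 5 nuclei 0 members were called with a minimum of 30 cells, which drops the COP nuclei, and leaving out 1 mouse gave 0 to 1 (0 without FGF1 replicate 45), where the lone mouse left in a group is assumed to vary like the other group. In Day 5 whole cells DESeq2 called 5 members, no filter 3, merged clusters 2 and the batch block 0, and leaving out 1 mouse gave 0 to 5. The difference between days gave 1 call with a minimum of 5 nuclei, which lets tanycytes in, and the difference between clusters gave 0 to 1 with 1 mouse left out (1 without vehicle replicate 29 or FGF1 replicate 10). Ncan in cluster 1, near 0 in the report, turned positive in DESeq2 (0.0026), with RLE size factors (0.013) and in merged clusters (0.72), and ranged from -0.12 to 0.089 with 1 mouse left out. Except where an alternative drops a cell type or merges clusters, the cause was not tested. With the replicate number as a block 2 members were called on Day 1, Ncan (FDR 0.00518) and Bcan (FDR 0.0135) in tanycytes. Ncan passed the filter on low counts through the FGF1 group, so its call is a description in this fit too. Ptprz1 in ependymal nuclei lost its call (FDR 0.0868). The replicate numbers were not taken as pairs. Acan, Hapln1 and Hapln4 in whole cells and all members in cell types of under 10 cells per mouse are limited by depth.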

Other observations

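Whole-cell cluster 18 was left unnamed because it passed 5 of 6 OPC and 4 of 6 oligodendrocyte markers. In its vehicle cells Tnr stood at 443 ± 54.7, Vcan at 393 ± 110, Ptprz1 at 1226 ± 192 and Acan at 74.7 ± 81.1 CPM of all UMIs (SD, n = 4), the last on 7 UMIs.

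Over the 19 whole-cell clusters, the gene whose vehicle levels were most like those of a member, by Pearson's r as a description, was Il17d for Acan (0.920), Serpine2 for Ncan (0.932), Me3 for Vcan (0.916) and Opcml for Tnr (0.943). Hapln1 and Hapln4 did not reach the 20 CPM asked of a gene there. Over the 27 nuclear types it was Katnbl1 for Hapln1 (0.883) and Spag7 for Hapln4 (0.889). The clusters share libraries and depth.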
